A study of Mus musculus with 30 samples.

Results

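A set of 9 erythroid and heme genes were followed in the blood of mice given oleic acid or physiological serum. They were Alas2, Hba-a1, Hbb-b1, Ahsp, Slc4a1, Epb42, Ermap, Gata1 and Klf1, taken by symbol or older symbol from the array's gene names with every probe that carries them. They are 9 of 25189 genes or transcripts tested, and their 12 probes are 12 of the 55681 probes on the array. All 12 probes passed the filter on dim signals, which required a probe to be well above background on at least 3 arrays.

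The arrays measured RNA of peripheral blood mononuclear cells (PBMC) from female C57BL/6 mice aged 6 weeks. Anaesthetised mice received 200 µl into the tail vein, either physiological serum or oleic acid (OA) at 1.2 µl per g of body weight. Intravenous OA is a standard way to cause acute lung injury in animals. Blood of 200 to 900 µl per mouse was collected at 1, 1.5, 3, 4, 18 or 24 h, and cells were separated on Ficoll of density 1.084. The 13 serum arrays fell into groups of 3, 3, 2, 1, 2 and 2 in that order of time, and the 17 OA arrays into groups of 3, 3, 3, 2, 3 and 3. The design text counts 30 mice for the 30 arrays, so each array was taken as 1 mouse. No group was left untreated, and every mouse had been injected, anaesthetised and bled.

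Red cells are made in the bone marrow, and in the mouse spleen, from precursors in which the transcription factors Gata1 and Klf1 switch on globin, heme and membrane genes. The young red cell that enters the blood, the reticulocyte, has lost its nucleus but keeps the messenger RNA made before, and loses it as it matures. A mononuclear cell preparation is meant to leave red cells behind. In bulk RNA, fewer cells of a type and less RNA per cell cannot be told apart.

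The leukocyte label was checked on defining markers. Ptprc, the pan-leukocyte gene, was well above background on all 30 arrays, as were all 6 measured T cell, 6 B cell, 6 monocyte, 8 neutrophil and 13 platelet markers. Markers of platelets and neutrophils were thus measured beside those of mononuclear cells. Depth of signal differed, with an array's 75th percentile between 37.7 and 136 and its well-above-background share between 34.6% and 64.7%. Median correlation with the other arrays was under 0.9 for 3 arrays. The lowest was the first serum array at 24 h (0.797), followed by the second OA array at 4 h (0.835) and the third serum array at 1.5 h (0.885). Arrays came from 5 slides of 8, 5, 8, 4 and 5 arrays, and the last of these held OA arrays alone. That slide was also scanned on a different day from the rest, so no serum array came from its scan day. Its arrays were OA replicates 2 and 3 at 1 h, replicate 3 at 3 h and replicate 1 at 18 and at 24 h. Their 75th percentiles were 95.1 to 135. For these arrays slide, scan day and treatment cannot be told apart.

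Promoter sequences are shown for 5 genes because levels of Alas2, Epb42 and the globins varied together, and because Gata1 is a factor that binds GATA motifs. RefSeq (GRCm38.p6) held a promoter for 6 of the 9 genes, and for the Hbb-b1 probe the accession belongs to the gene now called Hbb-bt. Each line gives 160 bases before the transcript start, 5′ to 3′ on the gene's strand. Capitals mark, on either strand, the GATA factor motif GATAA, the KLF factor motif CACCC, the TATA box letters TATAA and the CCAAT box. None of these matches overlapped a match to another motif.

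Alas2: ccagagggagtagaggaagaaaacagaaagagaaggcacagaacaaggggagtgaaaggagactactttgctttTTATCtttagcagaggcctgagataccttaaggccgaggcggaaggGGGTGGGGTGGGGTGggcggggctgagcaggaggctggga
Epb42: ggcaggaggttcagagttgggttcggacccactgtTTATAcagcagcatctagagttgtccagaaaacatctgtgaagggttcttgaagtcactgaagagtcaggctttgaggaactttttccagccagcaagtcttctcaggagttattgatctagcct
Hba-a1: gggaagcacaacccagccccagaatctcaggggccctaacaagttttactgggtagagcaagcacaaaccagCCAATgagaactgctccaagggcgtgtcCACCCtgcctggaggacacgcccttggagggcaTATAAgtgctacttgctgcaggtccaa
Hbb-bt: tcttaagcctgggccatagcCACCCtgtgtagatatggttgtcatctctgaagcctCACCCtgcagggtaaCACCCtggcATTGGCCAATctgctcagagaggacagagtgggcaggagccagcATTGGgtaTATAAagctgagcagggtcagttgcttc
Gata1: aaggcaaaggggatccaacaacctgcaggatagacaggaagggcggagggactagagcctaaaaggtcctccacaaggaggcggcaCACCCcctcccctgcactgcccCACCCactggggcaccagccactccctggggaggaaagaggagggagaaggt

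The Alas2 stretch is chrX:150547257-150547416 on the plus strand, that of Epb42 is chr2:121036878-121037037 on the minus strand and that of Hba-a1 is chr11:32283512-32283671 on the plus strand. The Hbb-bt stretch is chr7:103813924-103814083 on the minus strand and that of Gata1 is chrX:7967911-7968070 on the minus strand. In Alas2 a GATAA began 86 bases before the start, with CACCC at 40, 35 and 30 bases. In Hba-a1 a TATAA lay at 27 bases, a CCAAT at 88 and a CACCC at 60. Gata1 held CACCC at 74 and 52 bases and no GATAA in the window. Over the 250 bases before the start, GATAA was found in 5 of the 6 matched genes and in 22.6% of 32851 promoters. CACCC was found in 5 of 6 against 52.0% of promoters, TATAA in 4 against 22.8%, CCAAT in 3 against 33.8%, and GATAA with CACCC in 4 against 10.1%. A match is a run of letters and not a measured binding site.

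The levels below are log2 processed signals minus the array's 75th percentile. They are relative to each array and were compared between arrays for 1 probe, not between genes. The scaled globin levels also moved with the percentile itself, as described below. Differences are OA minus serum on that log2 scale, from a limma fit of all 12 groups with Benjamini-Hochberg adjustment over all genes tested and a threshold of 0.05. No gene of the 9 passed the threshold at any time, and no probe of the 12 did. The directions below are therefore given as values.

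Alas2, the erythroid form of the first enzyme of heme synthesis, had its lowest group in OA at 1.5 h. The 3 OA arrays at 1.5 h had levels of 9.30, 8.69 and 9.15, and the 3 serum arrays had 10.93, 10.98 and 10.30. The groups did not overlap. Their means were 9.05 ± 0.318 and 10.74 ± 0.377 (SD, n = 3 each), a difference of -1.69 (SE 0.61, 95% interval -2.96 to -0.42). The limma adjusted p was 0.47. At 1 h the OA arrays had 11.5, 10.17 and 10.69 and the serum arrays 11.68, 11.25 and 10.05, which overlap. At 3 h the OA levels of 9.22, 10.42 and 9.80 lay below the serum levels of 10.51 and 10.62. At 4 h the order was the other way, with 11.04 and 10.13 in OA and 9.79 in the single serum array. The 18 h groups overlapped, at 8.98, 10.65 and 11.84 in OA and 11.17 and 10.12 in serum. The 24 h groups also overlapped, at 10.75, 9.36 and 10.63 in OA and 12.09 and 10.46 in serum. Ordered by mean, the 12 groups ran from OA at 1.5 h (9.05) to serum at 24 h (11.28), and OA at 1.5 h lay wholly below the next group, serum at 4 h (9.79), while the other neighbours overlapped. Over all arrays the Alas2 level ranged over 3.40, and its SD within groups was 0.787.

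**Figure D1:**
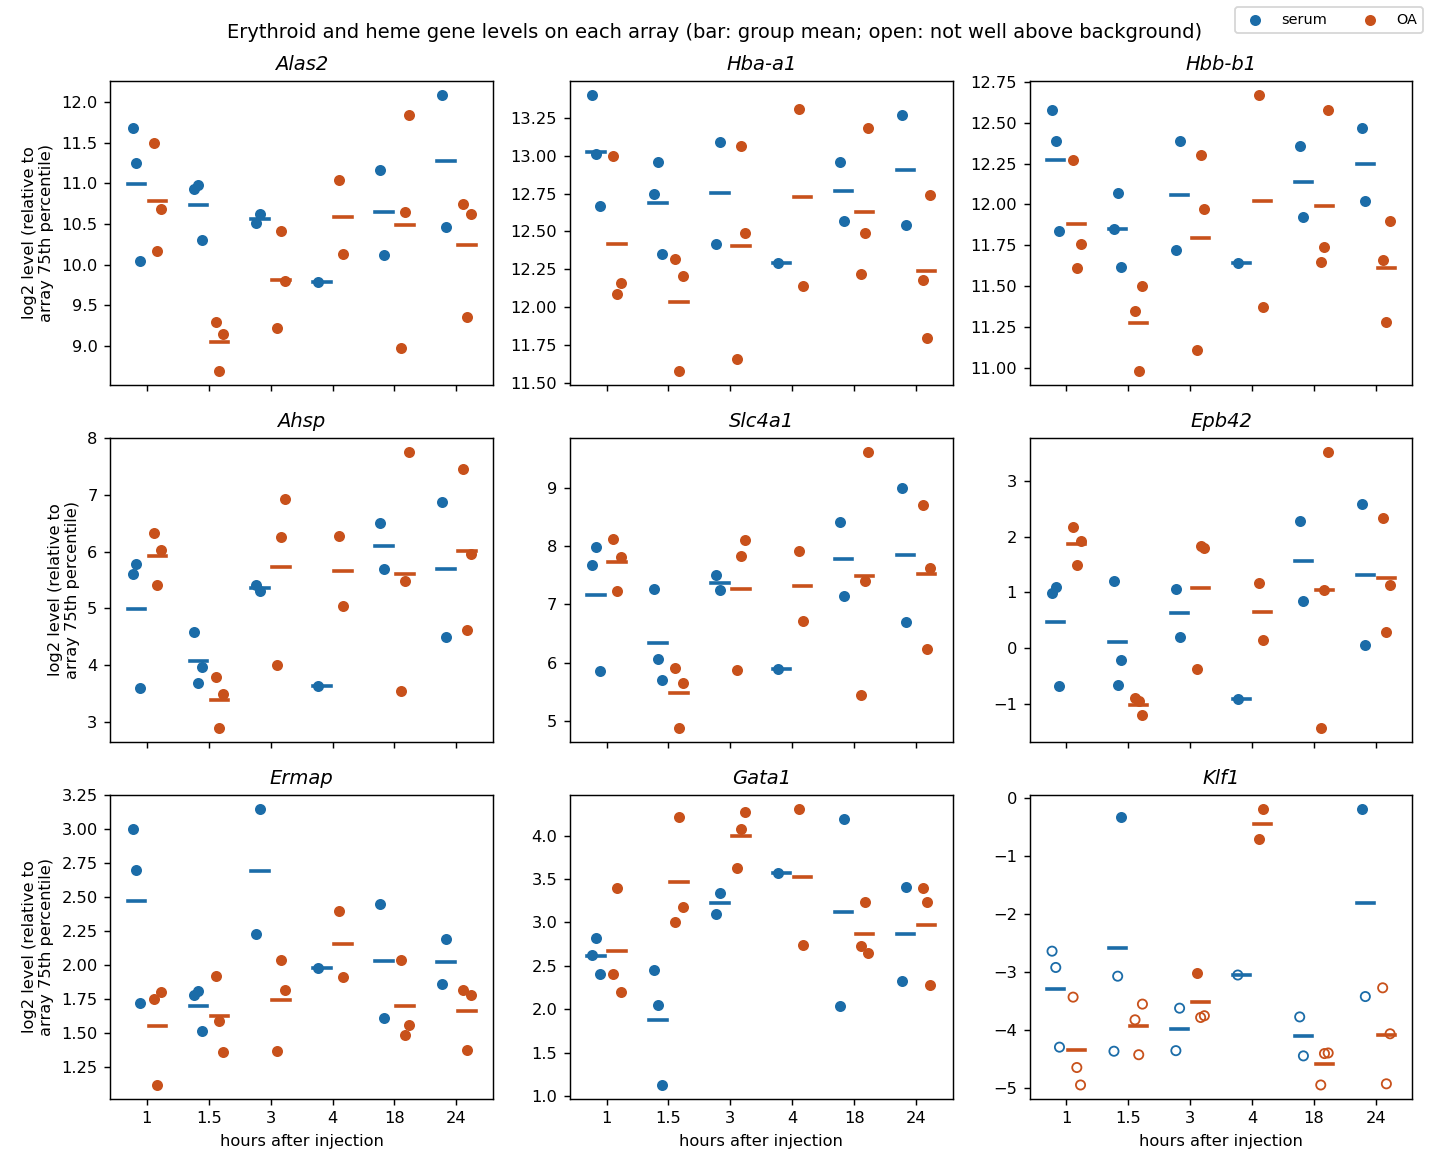
Log2 level relative to the array 75th percentile (vertical axis) of each of the 9 genes against hours after injection (horizontal axis), 1 point per array (open where not well above background) with a bar at the group mean, serum and OA in separate colours. Alas2 in OA at 1.5 h sits at 8.69 to 9.30, below the 3 serum arrays of that time, and Gata1 in OA at 1.5 h sits above its serum arrays.

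The globin probes had a similar order at 1.5 h. Hba-a1, an adult alpha globin, had 12.32, 11.58 and 12.21 in OA and 12.75, 12.96 and 12.35 in serum, without overlap. The difference was -0.65 (SE 0.42, 95% interval -1.52 to 0.21, limma adjusted p = 0.54). Hbb-b1, an adult beta globin, had 11.35, 10.98 and 11.50 in OA and 11.85, 12.07 and 11.62 in serum, also without overlap, with a difference of -0.57 (SE 0.38, limma adjusted p = 0.543). Neither difference passed the threshold. At 24 h the Hbb-b1 levels of 11.66, 11.28 and 11.90 in OA lay below 12.47 and 12.02 in serum (-0.63, SE 0.43, limma adjusted p = 0.24). Hba-a1 at 24 h overlapped, at 12.18, 11.80 and 12.74 against 13.27 and 12.54. At 1, 3, 4 and 18 h both globin probes overlapped between groups, or lay on both sides of the single serum array.

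The Hba-a1 probe is shown because its sequence sets which transcripts it can report.
Hba-a1 probe: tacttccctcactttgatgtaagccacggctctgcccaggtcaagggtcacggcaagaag
It lies at chr11:32183955-32184014 on the plus strand of mm9, within the transcript from base 161, and the array file lists both Hba-a1 and Hba-a2 for it. The near-identical alpha globin copies cannot be told apart by it. Its signal was the highest of all probes on 29 of the 30 arrays and reached 77.1% of the saturation level, without being saturated.

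The scaled globin levels moved with the scaling itself. The Hba-a1 log2 signal before scaling had an SD of 0.213 over the 30 arrays, while the log2 75th percentile had an SD of 0.583. The correlation of the scaled level with the log2 percentile was -0.935 for Hba-a1, -0.86 for Hbb-b1, -0.702 for Alas2 and -0.635 for Ermap. It was weaker for Slc4a1 (-0.441), Ahsp (-0.316), Epb42 (-0.295), Klf1 (-0.293) and Gata1 (0.159). These correlations share the percentile on both sides and are given as a description. With quantile normalization in place of the percentile, the Hba-a1 difference came to 0.00 at 1, 1.5, 4, 18 and 24 h. That method gives the top-ranked probe of every array the same value, and Hba-a1 ranked first on 29 of the 30 arrays. The 0.00 was therefore set by rank and tests nothing about the scaling.

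**Figure D2:**
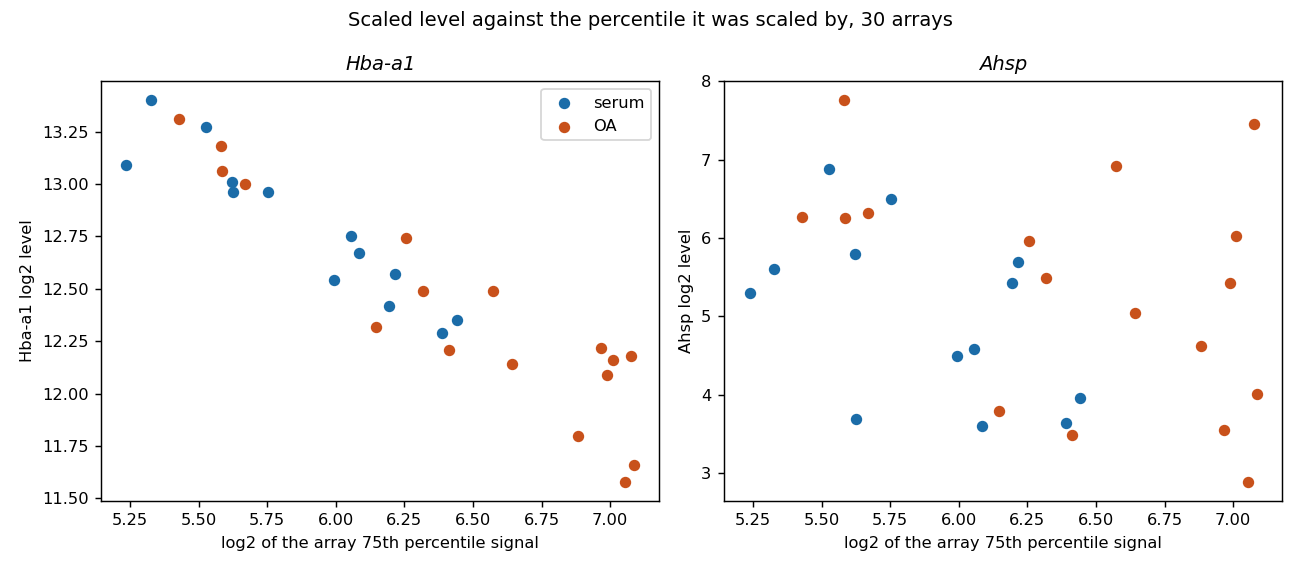
Scaled log2 level of Hba-a1 (left) and Ahsp (right) on the vertical axes against the log2 75th percentile signal of the array on the horizontal axes, 1 point per array, serum and OA in separate colours. The Hba-a1 points fall along a line (r = -0.935), and the Ahsp points scatter (r = -0.316).

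Ahsp, the chaperone of free alpha globin, and Slc4a1, the band 3 anion exchanger of the red cell membrane, varied widely among mice of 1 group. At 18 h the OA arrays had Ahsp levels of 3.55, 5.49 and 7.76, and the serum arrays 6.50 and 5.69. Slc4a1 in the same arrays was at 5.45, 7.40 and 9.62 in OA and 8.42 and 7.14 in serum. The array that was lowest for one was lowest for the other, and likewise for the highest. At 1.5 h Ahsp was at 3.79, 2.89 and 3.49 in OA and 4.58, 3.69 and 3.96 in serum (-0.69, SE 0.90, limma adjusted p = 0.701). Slc4a1 was at 5.91, 4.88 and 5.66 in OA and 7.27, 6.06 and 5.71 in serum (-0.86, SE 0.87, limma adjusted p = 0.638). Both overlapped. The SD within groups was 1.19 for Ahsp and 1.15 for Slc4a1, against a median residual SD of 0.599 over all genes.

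Epb42, protein 4.2, which ties band 3 to the membrane skeleton, lay on opposite sides at neighbouring times. At 1 h the OA arrays had 2.18, 1.5 and 1.93 and the serum arrays 0.99, 1.09 and -0.68, with no overlap. At 1.5 h the OA arrays had -0.90, -0.94 and -1.2 and the serum arrays 1.2, -0.65 and -0.21, again with no overlap. The differences were 1.40 (SE 0.92, limma adjusted p = 0.824) and -1.13 (SE 0.92, limma adjusted p = 0.588). The OA groups alone span the whole order here, since OA at 1 h (1.87) was the highest of the 12 group means and OA at 1.5 h (-1.02) the lowest. The second Epb42 probe, starting at base 2465 of the transcript against 2925, gave 1.42 at 1 h and -0.73 at 1.5 h, although it was well above background on 1 of 3 arrays in both serum groups and in OA at 1.5 h. Levels of both probes correlated over the 30 arrays (r = 0.782, rho = 0.806).

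Ermap, an erythroid membrane protein that carries the Scianna blood group in humans, had the OA mean below the serum mean at 5 of 6 times. At 3 h the OA arrays had 1.37, 2.04 and 1.82 and the serum arrays 2.23 and 3.15, without overlap (-0.95, SE 0.40, limma adjusted p = 0.62). At 1 h they had 1.75, 1.12 and 1.80 against 3.00, 2.70 and 1.72, which overlap (-0.91, SE 0.35, limma adjusted p = 0.824). The mean over the 6 times was -0.41 (SE 0.17, 95% interval -0.76 to -0.07, limma adjusted p = 0.318). The probe used, starting at base 3460 of the transcript, was well above background on all 30 arrays. The probes at 607 and 4013 were so on 14 and 18. These 2 dimmer probes did not share its direction at 3 h, at 0.37 (SE 0.89) and 1.23 (SE 0.66) in that order. The probe at 607 was not well above background in serum at that time. At 1 h they were at -0.67 and 0.12, and the mean over the 6 times was 0.12 for each (SE 0.37 and 0.28). Levels of the 2 dimmer probes correlated with each other (r = 0.544, rho = 0.609, adjusted permutation p = 0.00475 and 0.00146, r = 0.476 without 2 arrays and 0.581 within slides). The correlation of the probe used with the probe at 607 was r = 0.292 and rho = 0.244 (adjusted permutation p = 0.196 and 0.28). The correlation of the probe used with the probe at 4013 over the 30 arrays was r = 0.024 and rho = 0.235, and did not pass the threshold (adjusted permutation p = 0.932 and 0.284).

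Gata1, the master transcription factor of red cell and platelet precursors, had a difference of the opposite sign to that of Alas2 at 1.5 h. The OA arrays had 3.01, 4.21 and 3.18 and the serum arrays 2.45, 2.05 and 1.13, without overlap. The difference was 1.59 (SE 0.53, 95% interval 0.49 to 2.69, limma adjusted p = 0.47). At 3 h the OA levels of 3.63, 4.07 and 4.27 lay above the serum levels of 3.10 and 3.34 (0.77, SE 0.59). At 1 h the groups overlapped, at 2.41, 3.40 and 2.20 against 2.62, 2.82 and 2.41. At 4 h the OA arrays had 4.31 and 2.74, on both sides of the serum array at 3.57. At 18 h they had 2.73, 3.23 and 2.65 against 2.04 and 4.19, and at 24 h 3.40, 3.24 and 2.28 against 2.33 and 3.41. Neither late time separated the groups.

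The Gata1 level went with platelet markers across arrays. The mean level of 13 platelet and megakaryocyte markers correlated with Gata1 at r = 0.975 and rho = 0.965 over 30 arrays (permutation p = 1e-05, the smallest that 100000 resamples can give, adjusted 4.3e-05 over 43 relations). The value was 0.975 without the 2 arrays farthest from the median Gata1 level and 0.975 within slides. At 1.5 h the platelet mean was 5.62, 7.31 and 5.86 in OA and 5.01, 4.42 and 3.63 in serum. All 13 markers had a difference above 0 there, with a median of 1.93, and 0 passed the adjusted threshold, while 13 had an unadjusted p under 0.05 in limma. The part of platelets in the Gata1 difference was not tested.

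Klf1, the factor that drives adult beta globin and many red cell membrane genes, was near background. It was well above background on 5 of 30 arrays, namely serum 1.5 h replicate 3, serum 24 h replicate 1, OA 3 h replicate 1 and both OA 4 h arrays. Its levels fell into 2 separate sets, 4 arrays at -0.71 or higher and 26 at -2.64 or lower. The 4 were serum 1.5 h replicate 3 (-0.33), serum 24 h replicate 1 (-0.19) and the OA 4 h arrays (-0.71 and -0.20). Those 4 included all 3 arrays with a median correlation under 0.9. At 4 h Klf1 was not well above background in the serum array (-3.05), and OA was at least 5.32-fold higher (limma difference 2.59, SE 1.19, adjusted p = 0.477). That bound allows for the dim serum signal and not for the spread between mice. Over 42 alternatives of processing and arrays, the 4 h Klf1 difference ranged from 0.77 to 3.16. At 24 h the serum arrays had -0.19 and -3.42 and the OA arrays -3.27, -4.92 and -4.06, which overlap. No OA array was well above background there, and of the serum arrays only replicate 1 was, so no fold is given for the groups. The limma difference was -2.28 (SE 0.89, adjusted p = 0.0532). Without serum 24 h replicate 1 the limma difference was -0.66 (SE 1.00, adjusted p = 0.831). Of the 26 arrays of the larger set, 25 had Klf1 not well above background, so no correlation is given for them. The intergenic level, the mean log2 signal of intergenic probes minus the median of probes detected on every array, was highest and second highest in 2 of the 4 arrays with high Klf1 (-2.95 and -3.22). The others, serum 1.5 h replicate 3 and OA 4 h replicate 1, were at -4.56 and -4.6, which ranked 7 and 8 of the 30 arrays. The part of the intergenic level in the Klf1 values was not tested.

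**Figure D3:**
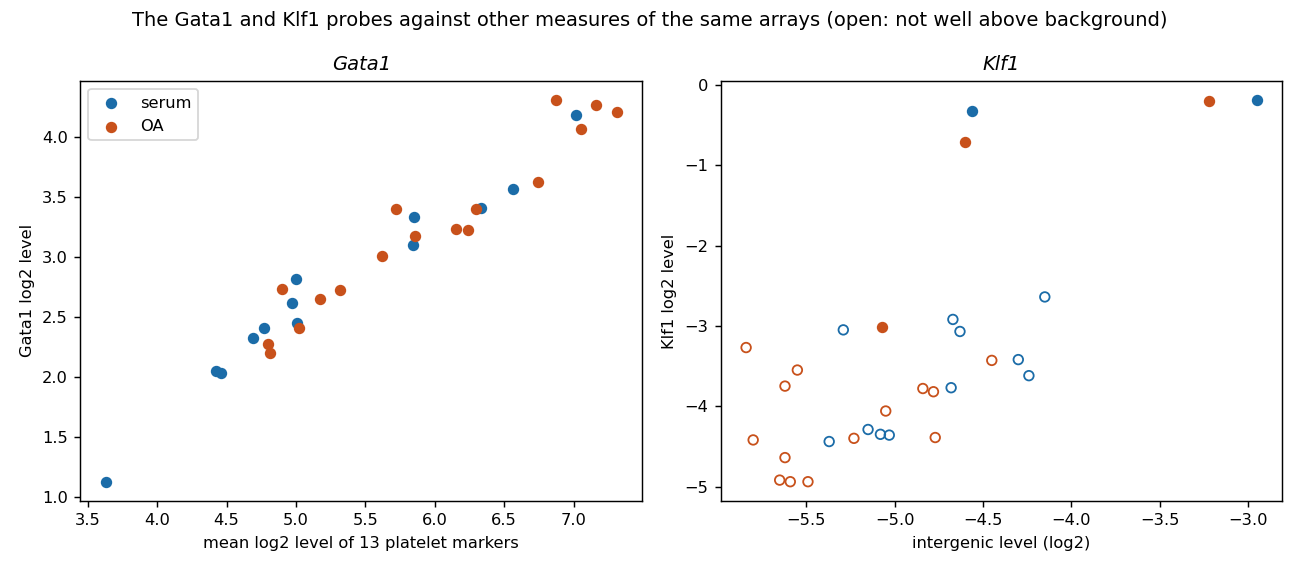
Log2 level of Gata1 against the mean log2 level of 13 platelet markers (left) and log2 level of Klf1 against the intergenic level, log2 relative to always-detected probes (right), 1 point per array, serum and OA in separate colours. The Gata1 points lie along a line (r = 0.975), and 4 Klf1 points stand at -0.71 or higher, apart from the other 26.

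Across the comparisons, the members were counted beside all genes. The share of all genes past the adjusted threshold was 0% at 1, 1.5, 3, 4 and 18 h and 31.5% at 24 h, against 0 of the 9 members at each time. At the 5 times without any call over all genes, limma gave an unadjusted p under 0.05 for 1, 2, 1, 1 and 0 of the 9, beside 5.11%, 10.1%, 7.76%, 10.4% and 1% of all genes. These were Ermap at 1 and 3 h, Alas2 and Gata1 at 1.5 h and Klf1 at 4 h. At 24 h it did so for 1 of 9, Klf1, beside 47.1% of all genes. The share of all genes at 24 h depended on single arrays. Of all genes 7922 passed at 24 h and 39 without serum 24 h replicate 1, whereas 141 passed without OA 24 h replicate 1. Both serum 24 h arrays shared a slide that held no OA 24 h array, so slide and treatment cannot be told apart at that time. Among the members, leaving out serum 24 h replicate 1 turned the 24 h difference of Slc4a1 from -0.33 to 0.82, of Epb42 from -0.07 to 1.2 and of Gata1 from 0.11 to -0.43. Alas2 went from -1.03 to -0.21 and Ahsp from 0.32 to 1.52, with no adjusted p under the threshold.

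The counts of groups without overlap were also set beside all genes. OA lay wholly above serum for 1 of 9 members at 1 h, beside 3.28% of all genes, and for 1 at 1.5 h, beside 18.5%. The count was 1 at 3 h, beside 17.7%, and 5 at 4 h, beside 31.9%, and it was 0 at 18 h and at 24 h, beside 2.69% and 27.5%. OA lay wholly below serum for 0 members at 1 h, beside 8.23% of all genes, and for 4 at 1.5 h, beside 7.01%. The count was 2 at 3 h, beside 12.9%, and 0 at 4 h, beside 40.7%, then 0 at 18 h and 2 at 24 h, beside 4.23% and 28.9%. The 4 at 1.5 h were Alas2, Epb42, Hba-a1 and Hbb-b1, and the 5 at 4 h were Alas2, Ahsp, Epb42, Klf1 and Slc4a1, set against a single serum array. The median difference of the 9 was -0.21, -0.69, -0.11, 0.79, -0.29 and -0.36 at the 6 times in order. Over all genes the medians were -0.05, 0.10, 0.13, -0.17, -0.06 and 0.05.

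**Figure D4:**
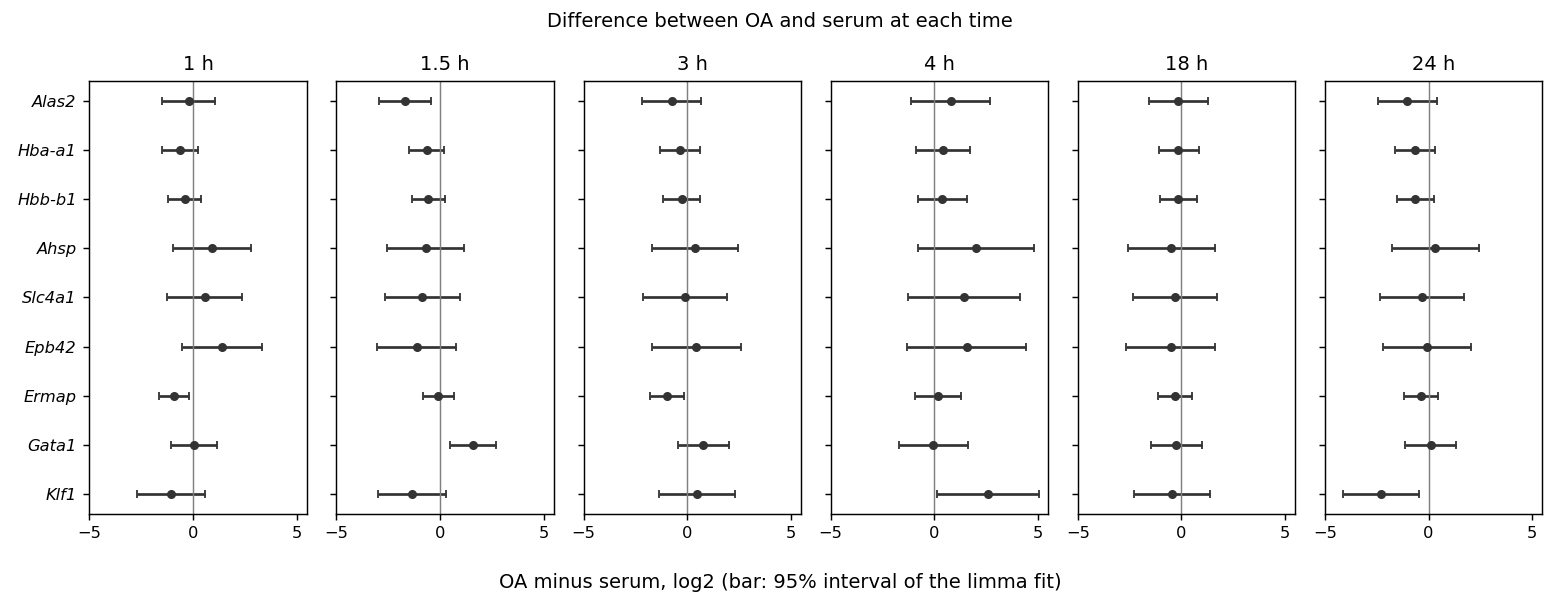
Difference in log2 level, OA minus serum (horizontal axis), with its 95% interval from limma, for each gene at each time. Intervals that exclude 0 before adjustment are those of Alas2 (-1.69) and Gata1 (1.59) at 1.5 h, Ermap at 1 and 3 h, and Klf1 at 4 and 24 h. No gene passed the adjusted threshold.

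Contrasts over several times gave no call among the 9 either. For the mean of the 6 times 0.00397% of all genes passed the adjusted threshold and 14.7% had an unadjusted p under 0.05, against 1 of 9 members, Ermap, for the latter. Setting the OA effect of 18 and 24 h against the OA effect of the earlier times gave 0% and 14.3% of all genes and 0 members. Late minus early levels gave 0.0199% and 6.33% of all genes in serum and 0.0119% and 4.08% in OA, with 0 members in each. The F test of the OA effect over times gave 0.00794% and 16.8% of all genes, with 1 member, Klf1, at an unadjusted p under 0.05 (limma adjusted p = 0.297). The F test over serum groups gave 0.0437% and 12.8% and 0 members, and that over OA groups 0.135% and 17.9% and 1 member, Klf1 (limma adjusted p = 0.112).

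Most of the genes varied together from array to array, over all groups. Of 28 pairs among the 8 genes other than Klf1, 17 had an adjusted permutation p of Pearson's r under 0.05 and 22 had r above 0. All 15 pairs among Alas2, Hba-a1, Hbb-b1, Ahsp, Slc4a1 and Epb42 were among them, with r from 0.484 to 0.971. Within groups the r of these pairs ran from 0.606 (Epb42 with Hba-a1) to 0.981 (Slc4a1 with Ahsp). The share of all gene pairs on the array that would pass was not computed, so the count of pairs has no background beside it. Slc4a1 and Ahsp correlated at r = 0.971 and rho = 0.963 (0.963 without 2 arrays, 0.974 within slides, 0.981 within groups). Epb42 and Slc4a1 correlated at r = 0.958 and rho = 0.941 (0.946 without 2 arrays, 0.956 within slides). Hba-a1 and Hbb-b1 correlated at r = 0.959 and rho = 0.947 (0.948 without 2 arrays, 0.968 within slides). Each of these had a permutation p of 1e-05, the smallest possible, adjusted 4.3e-05 over 43 relations. All levels of an array share its scaling. Before scaling r was 0.975 for Slc4a1 with Ahsp and 0.961 for Epb42 with Slc4a1, but 0.462 for Alas2 with Hbb-b1 against 0.835 after it.

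Gata1 had r from -0.398 to 0.0464 with the other 7 genes, and none of these passed by Pearson's r. Its lowest was with Alas2, which passed by Spearman's rho alone (r = -0.398, rho = -0.449, adjusted permutation p = 0.0548 and 0.0267, r = -0.286 without 2 arrays and -0.393 within slides). The r of that pair lies near the threshold, and would pass it if the Klf1 pairs were left out of the relations adjusted for together. Before scaling, r of Gata1 was 0.486 with Ermap and 0.441 with Hbb-b1, against -0.0158 and -0.134 after it, and -0.325 with Alas2. Ermap passed with Hba-a1 (r = 0.597) and Hbb-b1 (r = 0.605) and in none of its other 5 pairs, and these were 0.368 and 0.489 before scaling. Correlations of Klf1 with the other 8 genes are not given, since its levels fall into separate sets.

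**Figure D5:**
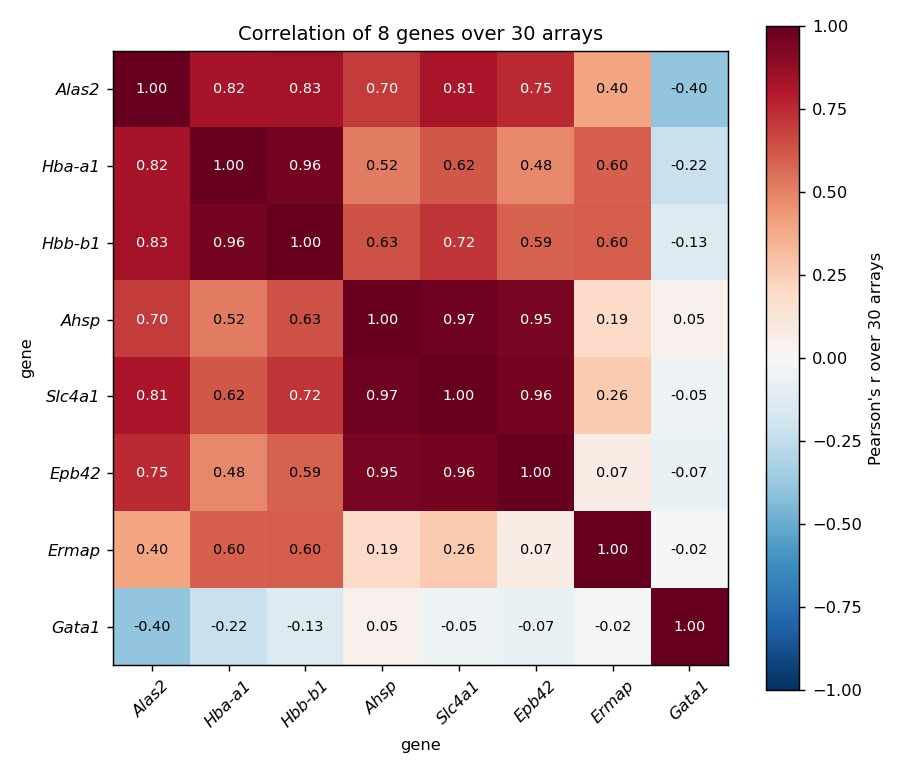
Pearson's r over 30 arrays between log2 levels of 8 genes, 1 cell per pair, with the colour scale from -1 to 1. Ahsp, Slc4a1 and Epb42 form a block at 0.949 to 0.971, and the Gata1 row runs from -0.398 to 0.0464.

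The genes with the most similar pattern over the 30 arrays were taken among 15821 other genes with a symbol, as a description without a test. For Alas2 they were Slc6a20a (r = 0.973), Fech (0.97), which inserts iron into heme, and Hbq1a (0.968). For Slc4a1 they included Prxl2a (0.979) and Ank1 (0.978), the ankyrin of the red cell skeleton. For Ahsp they included Rhd (0.975) and Rab3il1 (0.962). For Epb42 they were Acsl1 (0.974), Car2 (0.971), a carbonic anhydrase, and Prxl2a (0.97). For Hba-a1 they were Zfp628 (0.972), Pebp1 (0.961) and Hba-a2 (0.957), and for Hbb-b1 Hbb-b2 (0.963), Hba-a2 (0.937) and Zfp628 (0.936). For Gata1 they were Nomo1 (0.979), Clu (0.976) and Vwf (0.976), which platelets store. For Ermap they were Dmd (0.901), Erc2 (0.885) and Marchf1 (0.869). For Klf1 they were Sox3 (0.897), Ccl25 (0.894) and Olfr1461 (0.892), values taken over both of its separate sets of arrays.

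Other genes of the pathway were counted by list. Of 14 measured genes of heme synthesis and its transport, 0 passed at 1, 1.5, 3, 4 or 18 h, and 4 rose in OA at 24 h with 0 lower, beside 31.5% of all genes called at that time. That share is near the background. Of 6 monocyte and 6 B cell markers, 4 and 3 passed at 24 h with OA higher. Their mean levels ran from 3.74 to 4.27 in OA and 1.16 to 2.92 in serum for monocytes, and from 5.05 to 5.39 and 3.28 to 4.69 for B cells, and their part in the list's values was not tested. The 4 genes were Alas1, the housekeeping form of the first enzyme (1.28, limma adjusted p = 0.0245), Tmem14c (1.26), Slc25a38 (1.15), which carries glycine into mitochondria, and Uros (1.04). Without serum 24 h replicate 1, an alternative added after the values were seen, 0 of the 14 passed, and Alas1 stood at 0.73 (limma adjusted p = 0.592). Fech at 1.5 h had a difference of -1.5 (SE 0.66, limma adjusted p = 0.479), the lowest value of the list. At that time 9 of the 14 genes were above 0 and 5 below (median 0.16). At 3 h Abcb10 was at 2.06 (SE 0.55) and Uros at 0.94 (SE 0.38), each with limma adjusted p = 0.62 and OA wholly above serum. At 4 h Alas1 was at -1.53 against the single serum array.

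Of 16 measured genes of reticulocyte maturation and red cell enzymes, 0 passed at any time. At 1.5 h 15 of 16 had a difference below 0 (median -0.70), while 54.4% of all genes were above 0. The lowest p at 1.5 h was that of Ube2l6 (-1.89, SE 0.61, limma adjusted p = 0.47). At 1 and 4 h the list went the other way, with 13 above 0 (median 0.29) and 14 above 0 (median 0.86). Of all genes 46.9% and 44.1% were above 0 at those times, and the 4 h values rest on 1 serum array. The count above 0 was 7 at 3 h, 3 at 18 h and 2 at 24 h. Of 17 measured red cell membrane and skeleton genes 0 passed. Their medians were 0.60 at 1 h (16 above 0), -0.80 at 1.5 h (10 below 0) and 0.45 at 3 h (16 above 0). Later medians were 1.19 at 4 h (12 above 0), -0.15 at 18 h (3 above 0) and 0.15 at 24 h (9 above 0). For the mean of the 6 times all 17 were above 0 (median 0.23), beside 47.8% of all genes. At 1.5 h the other 7 were above 0, up to 1.98. Among these was Aqp1 (1.83, SE 0.63, limma adjusted p = 0.47), with OA wholly above serum. At 3 h Aqp1 was at 1.79 (SE 0.71, limma adjusted p = 0.62). Of 5 measured other globins 0 passed, with 4 of 5 below 0 at 1.5 h and 5 of 5 above 0 at 4 h. At 1, 3, 18 and 24 h the counts above 0 were 3, 2, 2 and 1. Among 11 measured erythroid regulators, all 11 had a difference above 0 at 1.5 h (median 0.53), beside 54.4% of all genes. All 13 platelet and megakaryocyte markers were above 0 there too (median 1.93), and their part in the regulators' values was not tested. At 24 h 2 regulators rose, a smaller share than the 31.5% of all genes. They were Bcl11a (1.57, limma adjusted p = 0.0268) and Lyl1 (1.35). The 6 B cell markers were also above 0 at 24 h (median 1.16), and their part was not tested. Of 8 iron uptake and storage genes 1 fell at 24 h, Slc11a2, an iron transporter (-1.5, SE 0.54, limma adjusted p = 0.0414). Of 5 measured genes of heme breakdown 1 rose at 24 h, Hmox2 (1.08, limma adjusted p = 0.037), and Hmox1, the inducible heme oxygenase, was at -1.38 at 1.5 h (SE 0.44, limma adjusted p = 0.47). The 1 of 8 and the 1 of 5 are also smaller shares than that of all genes. Hmox1 was at 0.93 at 18 h (SE 0.49, limma adjusted p = 1), with OA wholly above serum, and its OA effect at the late times exceeded that at the earlier ones by 1.22 (SE 0.43, limma adjusted p = 0.254). Without serum 24 h replicate 1, 0 genes of these lists passed at 24 h.

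Where a slide held both treatments at a time, differences could be read within it. There were 6 such slide and time combinations of 1 or 2 arrays per side, so no test was made. Ermap and Hba-a1 were below 0 in 6 of 6 and Hbb-b1 in 5 of 6, although 5 of the 6 Hba-a1 values lay between -0.15 and -0.03. Alas2, Gata1, Klf1 and Ahsp were below 0 in 3 of 6, and Epb42 and Slc4a1 in 2 of 6. At 1.5 h the 2 slides gave -2.29 and -1.16 for Alas2 and 2.16 and 2.05 for Gata1. At the other times 1 slide each gave Alas2 0.63, -0.20, 0.33 and 0.53 and Gata1 -0.10, 0.73, -0.83 and -0.95, at 1, 3, 4 and 18 h.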

How the data were processed

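RNA of mouse PBMC was measured on 30 single-colour Agilent arrays. The authors deposited scanner intensity values, read with Feature Extraction 10.5.1.1 per the submitters' processing notes, and background-corrected within each array per the file headers. The deposited table of the authors' log2 values was used only as an alternative, because no source used here states how it was background-corrected or scaled. It holds 62927 rows, its medians per column run from 5.354 to 5.356, and each of the 30 columns followed its own array most closely.

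Control spots (3671 of 62976) and spots with an outlier mark were dropped, and saturation affected 0 spots. The log2 processed signal minus the array's 75th percentile was used. Probes well above background on at least 3 arrays were kept (35874), with the probe of highest mean per gene (25189 genes or transcripts). Names came from RefSeq tables of GRCm38.p6 by accession (26762 probes), symbol (3819) or older symbol (639), and otherwise from the file (24461). Probe coordinates are in mm9, as in the files.

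A model with 12 groups was fitted to all arrays in limma 3.58.1 (R 4.3.3; 18 residual degrees of freedom) and tested two-sided with Benjamini-Hochberg adjustment and a threshold of 0.05. Where no array of a group had the probe well above background, the fold is a lower bound ("at least"). It then compares the brighter mean with a floor averaged over the dimmer arrays, the floor of an array being its faintest well-above-background signal, or the probe's own signal if that is larger. Correlations were tested with 100000 permutations and adjusted over all 43 relations computed, pooled Klf1 pairs included. The permutations shuffled all arrays without regard to group, so group differences enter those p-values. The number of arrays limits the precision. The limma p-values set a difference against the spread between mice within groups. That spread was estimated for each gene over all 12 groups together and moderated across genes. It is not the spread of the 2 groups compared. The serum 4 h group has 1 array and was assumed to vary like the others. Scripts were tested on simulated data.

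The 9 genes, the gene lists and the tests were chosen with earlier results of these data known. Named genes were all members with every probe, pathway genes past the threshold in an OA contrast (at most 10), otherwise among the 3 smallest p, and the 3 best correlated genes per member, of which 1 gene is not reported here. Alternatives changed the background correction, scaling, filter, probe rule, slide, replicate number, arrays and authors' values.

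Replicate numbers were not treated as pairs of mice. Of 12 pairs of same-numbered arrays, 4 had deviations correlated over 0.1, in a range from -0.527 to 0.424. Deviations from the mean of so few arrays depend on each other, so this check cannot exclude pairing.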

Additional observations from a re-analysis of the deposited data

Results flagged for a closer look

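For 4 comparisons of times, every OA array lay on one side of serum at one time and on the other side at the other. The OA effect on Alas2 at 4 h minus that at 1.5 h was 2.48 (SE 1.11, limma adjusted p = 0.233). At 4 h minus 3 h it was 1.54 (SE 1.15, limma adjusted p = 0.506). For Epb42 the effect at 1 h minus that at 1.5 h was 2.53 (SE 1.31, limma adjusted p = 1), and at 4 h minus 1.5 h it was 2.69 (SE 1.67, limma adjusted p = 0.298). None passed the threshold, and the 4 h values rest on 1 serum array. No group held 4 arrays, so no single array was checked against its group.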

How the results depend on the processing

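The count of members past the threshold was 0 in every contrast and alternative run except at 24 h and for the F test of the OA effect. At 24 h it was 1 (Klf1) with normexp background correction (difference -0.86, limma adjusted p = 0.0292) and 1 without the filter on dim probes (limma adjusted p = 0.0491). Leaving out 1 array at a time it ranged from 0 to 1 at 24 h (Klf1, without serum 1.5 h replicate 1, serum 1.5 h replicate 3 or serum 24 h replicate 2) and from 0 to 1 for the F test of the OA effect (without serum 24 h replicate 2). The Klf1 difference at 24 h was -0.66 without the 3 arrays of low correlation and -0.17 with the intergenic level as a covariate; the cause was not tested. With the replicate number as a block it was -2.35 (limma adjusted p = 0.0607), and the block gave 0 members past the threshold in every contrast. The all-gene counts at 24 h were 10734 with normexp and 11981 without the filter, against 7922.

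Alas2 at 1.5 h ranged from -1.96 to -1.22 and Gata1 from 1.1 to 1.87 over 43 alternatives, with limma adjusted p of 0.181 to 1 and 0.165 to 1. Of 63 differences, the number that changed sign or came to 0 was 12 with normexp, 16 with quantile normalization, 16 with the authors' values, 15 with the intergenic covariate and 5 with scaling to the median of always-detected probes. That scaling moved the all-gene median at 24 h from 0.05 to -0.55, and at 4 h from -0.17 to 0.39. Quantile normalization gave Hba-a1 a difference of 0.00 at 1, 1.5, 4, 18 and 24 h, as its probe ranked first on 29 of 30 arrays. Contrasts that need the serum 4 h array have no value without it.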
